A study of Rattus norvegicus with 21 samples.

Results

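Total RNA of cultured rat astrocytes was examined here for repeat-derived transcripts after small interfering RNA (siRNA) against TDP-43, in the input libraries of an immunoprecipitation experiment, that is, in RNA taken without antibody. These are 6 of the series' 21 libraries, 3 labelled TDP-43 siRNA input and 3 labelled Control input, chosen by those labels from a table of raw counts for 1275 repeat names. All cells were primary Sprague-Dawley astrocytes from neonatal pups at passages 2 to 3, transfected with a lipid reagent. The TDP-43 siRNA cells received siRNA against TDP-43; the labels of the Control input libraries name no siRNA and do not state whether a scrambled one was used. Neither the siRNA sequence, its dose nor the time after transfection is given in the sources used here, and no label tells whether the 3 replicates came from different cultures or pups, so the p-values speak only for the spread among these libraries.

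TDP-43, encoded by Tardbp, is a nuclear protein that binds RNA and DNA, prefers UG-rich RNA, and acts in splicing and RNA turnover. Its loss from the nucleus marks amyotrophic lateral sclerosis and part of frontotemporal dementia. Repeat-derived RNA comes from mobile elements and from small structural RNA genes. Endogenous retroviruses are remnants of past infections, with an internal part coding for viral proteins between long terminal repeats (LTRs) that hold promoter signals; LINEs and SINEs also spread through RNA copies, whereas DNA transposons moved as DNA. Many copies lie in introns, so total RNA also holds repeat sequence transcribed as part of genes.

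In units of 1000000 repeat counts, input libraries held 9.47, 11.7 and 11.05 with TDP-43 siRNA and 9.56, 10.3 and 11.5 in Control. Levels below are in CPM, that is, counts per 1000000 repeat counts on totals scaled by edgeR's TMM factors, so they are relative to other repeats and not to all RNA. The repeat table holds no genes, so the knockdown and the cell type could be checked only in the series' separate poly(A) libraries. Tardbp stood there at 29.7, 20.7 and 24.1 CPM with TDP-43 siRNA and at 178, 157 and 171 CPM with scrambled siRNA (exact permutation p = 0.1, the smallest that 3 against 3 libraries allow). Summed astrocyte markers (8 of 8 found, none at 0) ran from 3713 to 4672 CPM with TDP-43 siRNA and from 4723 to 5677 CPM with scrambled siRNA. Fibroblast and mural markers (4 of 4 found, none at 0) ran from 1262 to 1871 against 3884 to 5204 CPM, neuron markers (4 of 4 found, Rbfox3 at 0 in some libraries) from 34.8 to 44.9 against 12.7 to 24.4 CPM, microglia markers (5 found, none at 0) from 119 to 150 against 156 to 190 CPM, and oligodendrocyte lineage markers (5 found, none at 0) from 98.9 to 119 against 110 to 155 CPM. Endothelial markers were near 0, from 0.767 to 1.62 against 1.07 to 2.31 CPM, with Cldn5 at 0 in every library. Acta2 made up most of the fibroblast and mural sum with scrambled siRNA, at 3994, 2779 and 2850 CPM, against 907, 560 and 789 CPM with TDP-43 siRNA. Col1a1 and Pdgfrb were lower too, by less, and Dcn overlapped. Slc1a2 of the astrocyte list and Olig2 and Pdgfra of the oligodendrocyte list went against their sums, higher in every library with TDP-43 siRNA. Tubb3 made up nearly all of the neuron sum, at 32.4, 37.7 and 42.6 CPM with TDP-43 siRNA against 22.3, 12.1 and 11.2 CPM with scrambled siRNA. Rbfox3 and Snap25 stayed under 1 CPM in each of these 6 libraries. The part of these shifts in the repeat results was not tested. In such bulk RNA, fewer cells of a type and less RNA per cell cannot be told apart.

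Retroviral elements accounted for most of the repeats that rose after TDP-43 siRNA, and DNA transposons and ancient repeats for more than any other classes among those that fell. Of 1191 repeat names with enough counts to test, edgeR's quasi-likelihood test called 90 higher (7.56% of those tested) and 74 lower (6.21%) at an adjusted p under 0.05. The balance depended on the scaling: total counts gave 59 rises and 20 falls, and upper-quartile factors 64 and 140. With the spread estimated over all 12 libraries of the table, edgeR called 0 and 0. Transposable elements made up 88 of the rises and 68 of the falls. They were also 1116 of the 1191 names tested, so both counts lay near their share of those names. The changes were small: 8 rises and 14 falls reached 1.5-fold, 2 and 2 reached 2-fold, and the median log2 change was 0.32 among the rises and -0.31 among the falls. For 194 names (16.3%) every library with TDP-43 siRNA lay above every Control library, and for 204 (17.1%) below.

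**Figure D1:**
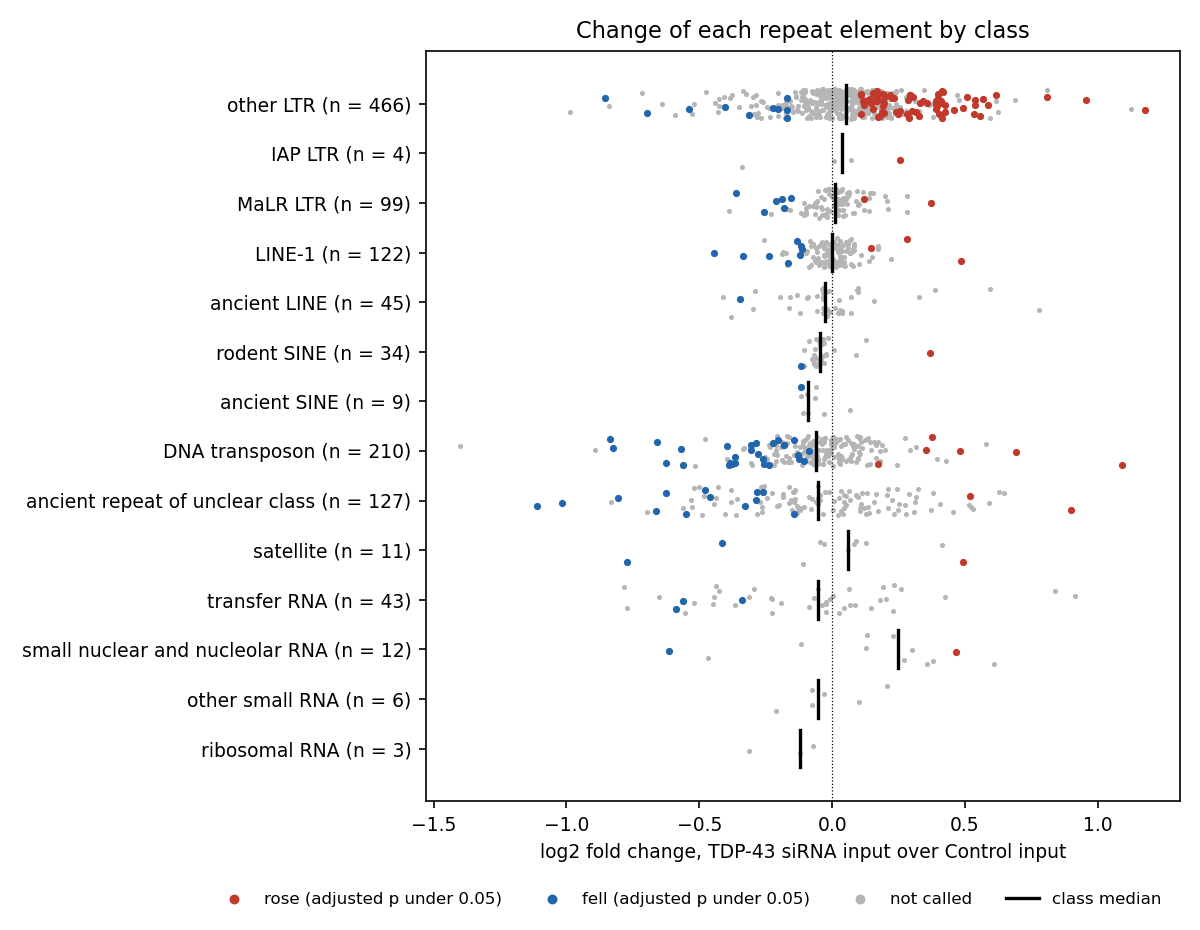
Log2 fold change of each of the 1191 tested repeat names, TDP-43 siRNA input over Control input, by class. Each point is a repeat name, colour marks edgeR calls, and the black bar is the class median; LTR elements other than MaLR and IAP hold 73 of the 90 rises, and DNA transposons 28 of the 74 falls.

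LTR elements outside the IAP and MaLR groups held most of the rises. Of 466 tested, 73 rose (15.7%, against 7.56% of all names) and 10 fell (2.15%, against 6.21%), with 296 above 0. Their median log2 change was 0.05, that of all tested names 0.00. With total-count scaling these medians were 0.11 and 0.06, and with upper-quartile factors 0.00 and -0.05. The class median in single libraries, relative to each name's mean over all 6, was 0.03, 0.03 and 0.03 with TDP-43 siRNA and -0.03, -0.02 and -0.03 in Control, so the groups did not overlap. Total-count scaling gave 41 rises in this class, and leaving out TDP-43 siRNA input replicate 3, Control input replicate 1 or Control input replicate 2 gave 40, 39 or 43. Without Control input replicate 3, which stands apart in ribosomal RNA, 58 rose.

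Internal, protein-coding parts of these retroviruses rose more often than their LTR ends, a division made after the values were seen and therefore described without a test. Of 83 internal parts 32 rose (38.6%) and 1 fell, with a median log2 change of 0.16, while of 383 LTR ends 41 rose (10.7%) and 9 fell, with a median of 0.04. Summed over the 83 internal parts, levels were 12103, 11546 and 11671 CPM with TDP-43 siRNA against 10726, 10696 and 10427 CPM in Control. The lowest library with TDP-43 siRNA lay above the highest Control library. The 32 rises became 19 under total-count scaling, 21 without TDP-43 siRNA input replicate 3 or Control input replicate 2, and 25 without Control input replicate 3.

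Members of the RNERVK group of rat endogenous retroviruses, all listed as internal parts, moved together: 6 of 7 rose and the seventh, RNERVK9-int, was at 0.15 (SE 0.05, edgeR adjusted p = 0.0717). Over the internal parts of the LTR class 38.6% rose, and over all names 7.56%. The RNERVK group was picked out after its values were seen, so its count is a description only. RNERVK8c-int stood at 166, 167 and 180 CPM with TDP-43 siRNA and at 125, 121 and 119 CPM in Control (log2 fold change 0.49, SE 0.04, edgeR adjusted p = 0.000271). RNERVK8d-int stood at 111, 105 and 113 CPM with TDP-43 siRNA, against 76.5, 77.2 and 72.4 CPM in Control (0.54, SE 0.05, adjusted p = 0.000271 by edgeR). In both, every library with TDP-43 siRNA was above every Control library by more than the spread within a group. RNERVK23-int was more variable, at 186, 140 and 163 CPM with TDP-43 siRNA against 108, 109 and 114 CPM in Control (0.56, SE 0.09). RNERVK8-int (0.29), RNERVK3-int (0.34) and RNERVK22-int (0.40) rose too. Summed over the 7, levels were 873, 826 and 866 CPM with TDP-43 siRNA and 654, 647 and 643 CPM in Control. Without Control input replicate 3, 4 of the 7 rose.

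NICER elements, named here as LTR elements, gave 10 rises and 0 falls among 15 names, of which 14 were above 0. Over the whole LTR class 15.7% rose and 2.15% fell, over its internal parts 38.6% rose, and over all names 7.56% rose and 6.21% fell. This group too was picked out after its values were seen. NICER2v_Rn_I-int stood at 394, 345 and 363 CPM with TDP-43 siRNA and at 265, 271 and 265 CPM in Control (log2 0.46, SE 0.05, edgeR adjusted p = 0.000317). RNNICER3-int stood at 98.3, 85.2 and 84.5 CPM with TDP-43 siRNA, against 59.0, 63.1 and 58.1 CPM in Control (0.57, SE 0.07, edgeR adjusted p = 0.000717). Again no library of a group overlapped the other group. Lower in size were NICER19A-int (0.24), NICER19B-int (0.25) and NICER-int (0.17), all called. Members that were not called were NICER3B_Rn (0.33, SE 0.10, edgeR adjusted p = 0.0507), NICER1D_Rn_LTR (0.23), RNNICER2-int (0.06), NICER1E_Rn_LTR (0.02) and NICER3A_Rn (-0.21, SE 0.07). Total-count scaling left 4 of these rises, and leaving out Control input replicate 2, Control input replicate 1 or TDP-43 siRNA input replicate 3 left 5, 6 and 6; without Control input replicate 3 there were 10.

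**Figure D2:**
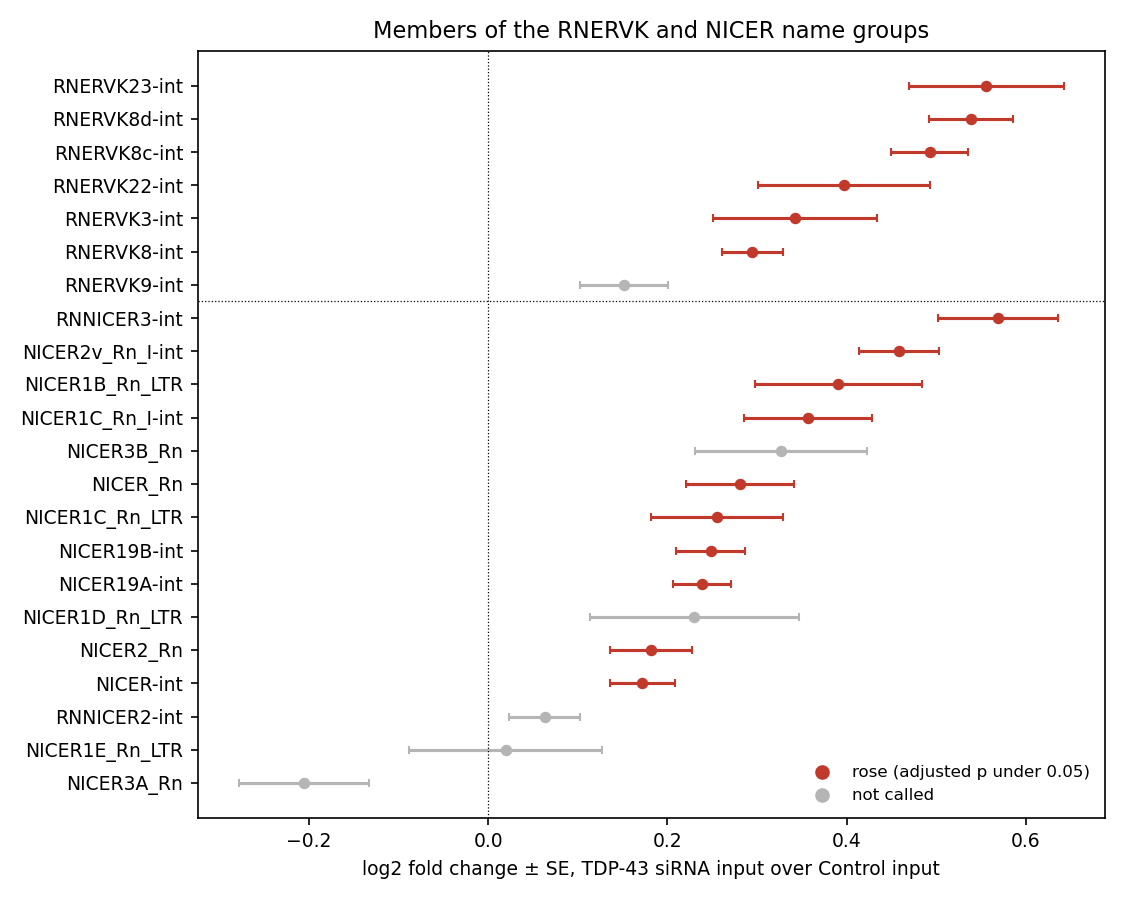
Log2 fold change with its standard error for the 7 RNERVK names (upper block) and the 15 names with NICER (lower block), TDP-43 siRNA input over Control input, 3 libraries each. Red points are edgeR rises and grey points were not called; NICER3A_Rn, at -0.21, is the member below 0.

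RNLTR11-int, an internal part, had the smallest p of all tested names. It stood at 103, 100 and 96.1 CPM with TDP-43 siRNA and at 66.2, 65.4 and 63.9 CPM in Control (log2 0.62, SE 0.05, edgeR adjusted p = 0.000196), with each group spanning only a few CPM. Among the 73 tested RNLTR names 15 rose and 2 fell, while 15.7% of the LTR class rose and 2.15% fell. Of all names 7.56% rose and 6.21% fell. RNLTR4d_I rose, with 212, 203 and 199 CPM against 158, 159 and 151 CPM in Control (0.39, SE 0.04, edgeR adjusted p = 0.000317), as did RNLTR4-int (0.20) and the low LTR RNLTR4d (0.81, SE 0.23), while RNLTR4a (0.02), RNLTR4b (-0.02) and RNLTR4c (-0.10) were not called. RNLTR14-int fell against the direction of its group. It stood at 331, 291 and 311 CPM with TDP-43 siRNA and at 470, 457 and 427 CPM in Control (-0.54, SE 0.05, edgeR adjusted p = 0.000271), and was the internal part called lower.

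The RMER group of rodent LTR names gave 13 rises and 0 falls of 58, and RLTR names 10 rises and 2 falls of 84. Over the whole LTR class 15.7% rose and 2.15% fell, and over all names 7.56% and 6.21%. The abundant RMER6C stood at 807, 714 and 721 CPM with TDP-43 siRNA and at 557, 554 and 572 CPM in Control (log2 0.41, SE 0.05, edgeR adjusted p = 0.000596). RMER6D (0.33) rose with it, while RMER6A (0.08), RMER6B (0.05) and RMER6BA (0.08) were not called. The name groups given here, and the RMER6 and RNLTR4 members within them, were picked out after their values were seen. RLTR31M stood at 40.1, 36.8 and 41.8 CPM with TDP-43 siRNA, against 24.5, 28.9 and 28.4 CPM in Control (0.53, SE 0.08), and MLTR13 at 46.5, 45.4 and 48.3 against 29.4, 36.0 and 31.2 CPM (0.54, SE 0.08). MERVL_2A-int, internal part of an ERVL-class element, rose by 0.20 at the high level of 960, 947 and 937 CPM with TDP-43 siRNA against 815, 849 and 816 CPM in Control. LTR names of the form LTR and a number, many of them ancient, gave 4 rises and 3 falls of 97, and the ERVL-related MT2 and MLT2 names 0 and 0 of 16, with MT2B, the most abundant LTR name of the class, at 2886, 2751 and 2814 CPM with TDP-43 siRNA against 2866, 2985 and 2815 CPM in Control (-0.04, SE 0.04).

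Internal part and LTR of the same element could be paired by name for 31 elements. Internal parts rose in 10 pairs and fell in 1, LTRs rose in 6 and fell in 2, and both rose in 3: RNLTR4d, NICER1C_Rn and RNLTR12. Over the LTR class 38.6% of internal parts and 10.7% of LTR ends rose, so internal parts and LTRs lay closer together in the pairs. Over all names 7.56% rose and 6.21% fell. The internal part had the higher log2 change in 20 of the 31 pairs, with a median of 0.15 against 0.03 for LTRs. ERVB2_2 differed most among pairs with a called member: its LTR, ERVB2_2-LTR_RN, stood at 37.9, 29.9 and 36.5 CPM with TDP-43 siRNA and at 63.9, 63.9 and 59.98 CPM in Control (-0.86, SE 0.08, edgeR adjusted p = 0.000317), whereas its internal part was at 0.17 (SE 0.12) and not called. Such pairs share a source, and reads of related LTRs can be assigned to several names.

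**Figure D3:**
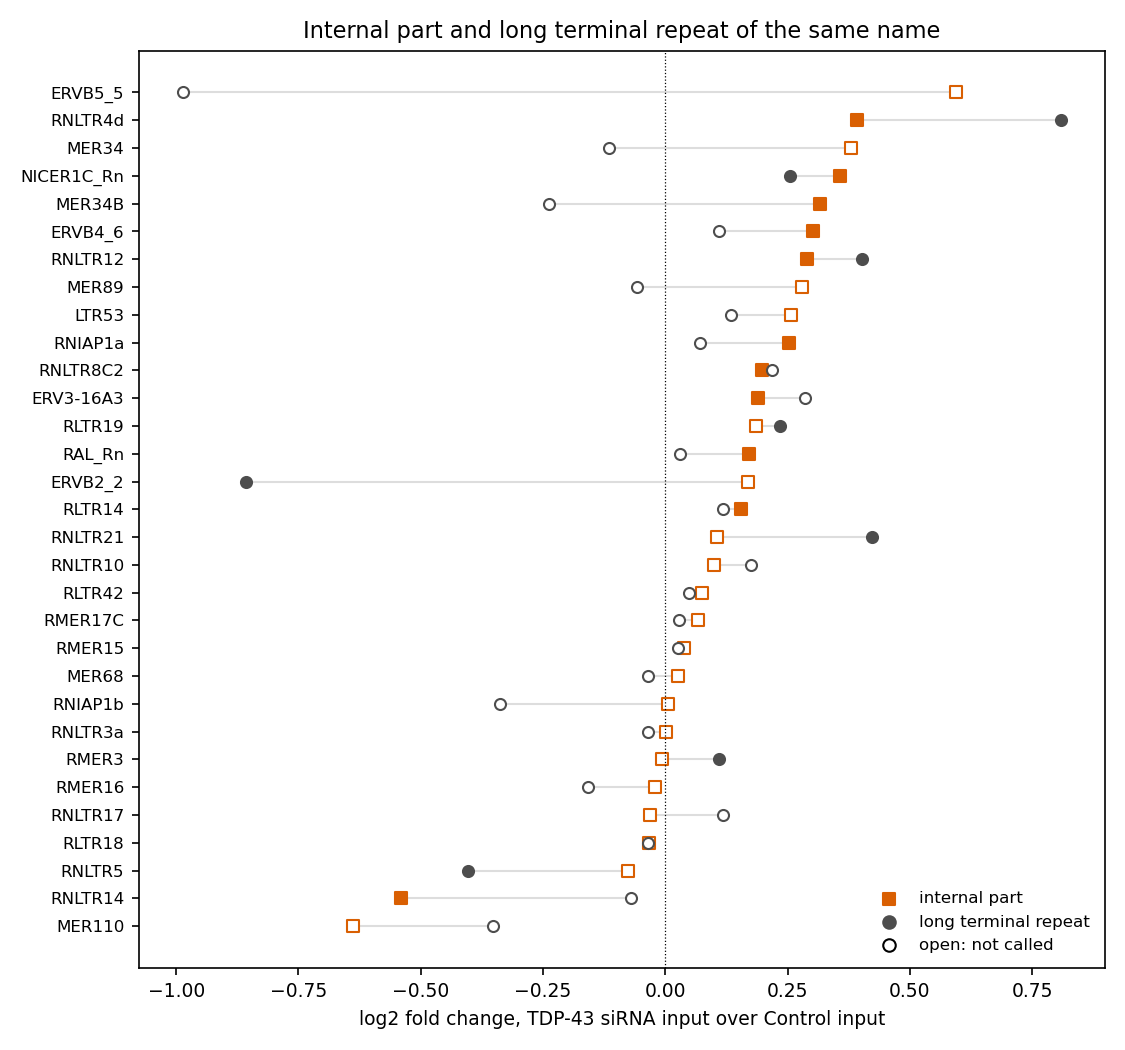
Log2 fold change of the internal part (orange squares) and the LTR (grey circles) of 31 elements that share a name, TDP-43 siRNA input over Control input. Filled symbols are edgeR calls and open ones were not called; internal parts rose in 10 pairs and LTRs in 6, and the called LTR of ERVB2_2 lies at -0.86.

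IAP elements, a rodent retrovirus family that still moves in mice, were at low levels. RNIAP1a, its most abundant name, stood at 169, 167 and 163 CPM with TDP-43 siRNA and at 136, 145 and 138 CPM in Control (log2 0.25, SE 0.04, edgeR adjusted p = 0.00212), and lost its call under total-count scaling. RNIAP1b was at 0.01 (SE 0.06) and RNIAP1aLTR at 0.07 (SE 0.11), neither called. RNIAP1bLTR, the remaining IAP name, was lower at -0.34 (SE 0.12, edgeR adjusted p = 0.0913) and not called either. MaLR elements, non-autonomous relatives of ERVL, gave 2 rises (2.02%, against 7.56% of all names) and 6 falls (6.06%, close to the 6.21% of all names) of 99, of which total-count scaling left 1 and 1; 1 rose in the fits without TDP-43 siRNA input replicate 1 or 3 or Control input replicate 1 or 2. MTE-int stood at 1360, 1170 and 1262 CPM with TDP-43 siRNA, against 1637, 1593 and 1647 CPM in Control (-0.36, SE 0.05, edgeR adjusted p = 0.00142), and MTEb fell by 0.21 on the log2 scale. MLT1H went the other way, with 221, 206 and 204 CPM against 158, 159 and 171 CPM (0.37, SE 0.04, edgeR adjusted p = 0.000729). The most abundant MaLR names, MTD (-0.02), MTC (-0.02) and ORR1D1 (0.03), each with an SE of 0.03, were not called.

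DNA transposons leaned lower: 28 of 210 fell (13.3%, against 6.21% of all names) and 6 rose (2.86%, against 7.56%), with 137 below 0 and a median log2 change of -0.06. That median depended on the scaling, at 0.00 with total counts and -0.11 with upper-quartile factors, where the median of all names was 0.06 and -0.05. The class median was -0.03, -0.03 and -0.03 in the libraries with TDP-43 siRNA and 0.05, 0.05 and 0.01 in Control. MER5 names, non-autonomous relatives of the hAT transposon Charlie, were below 0 in 5 of 5 and fell in 3. They too were picked out after their values were seen. MER5A1 stood at 511, 489 and 499 CPM with TDP-43 siRNA and at 599, 633 and 587 CPM in Control (-0.28, SE 0.03, edgeR adjusted p = 0.000756), while MER5A (-0.11) and MER5B (-0.12) fell less. Charlie names gave 0 rises and 2 falls of 46, and Tigger names, of the Tc1/mariner type, 1 and 3 of 33. Both counts of falls were nearer to the 6.21% of all names than to the 13.3% of the class. Tigger15a, at 166, 164 and 162 against 224, 219 and 201 CPM in Control, fell by 0.39. These falls depended on the scaling: total counts gave 6 in the class and upper-quartile factors 46, while DESeq2 gave 18, leaving out Control input replicate 1 gave 16, and leaving out Control input replicate 2 or TDP-43 siRNA input replicate 3 gave 17 each. Of the 3 MER5 falls, total counts left 0, and DESeq2 and the fits without TDP-43 siRNA input replicate 3 or Control input replicate 2 left 1. Without Control input replicate 3, 21 DNA transposons fell, and 2 of the MER5 names. The distance between the medians of the LTR class and of DNA transposons was 0.11. Another scaling shifts all names nearly alike, so it could hardly move this distance and is no check of it. Leaving out single libraries gave 0.105 to 0.121.

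Changes of about 2-fold were found in rare elements. Helitron1Nb_Mam, a rolling-circle DNA transposon, stood at 36.8, 27.97 and 31.6 CPM with TDP-43 siRNA and at 12.8, 16.8 and 15.2 CPM in Control (log2 1.09, SE 0.13, edgeR adjusted p = 0.000699). MamRep1527, an ancient repeat of unclear class, stood at 38.4, 32.0 and 31.3 CPM with TDP-43 siRNA, against 16.5, 20.4 and 17.3 CPM in Control (0.90, SE 0.11, edgeR adjusted p = 0.000764). Both groups kept clear of each other in these names. Eutr18 was the deepest fall with at least 10 CPM, at 9.96, 8.76 and 9.81 CPM with TDP-43 siRNA against 22.1, 20.2 and 19.2 CPM in Control (-1.11, SE 0.10, edgeR adjusted p = 0.000271). At that level ERVB2_2-LTR_RN (-0.86), X9b_DNA (-0.84), MER94B (-0.83), MARE8 (-0.81), SATI_RN (-0.77), MER136 (-0.66) and X33a_DNA (-0.66) followed. MER136 lost its call without TDP-43 siRNA input replicate 2 or 3 or Control input replicate 1 or 2. Of the 127 tested ancient repeats of unclear class, 13 fell (10.2%, against 6.21% of all names) and 2 rose (1.57%, against 7.56%). Total-count scaling gave 7 falls in that class and upper-quartile factors 21, and leaving out TDP-43 siRNA input replicate 3, Control input replicate 1 or Control input replicate 2 gave 8, 5 or 6; without TDP-43 siRNA input replicate 2 there were 5 rises.

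**Figure D4:**
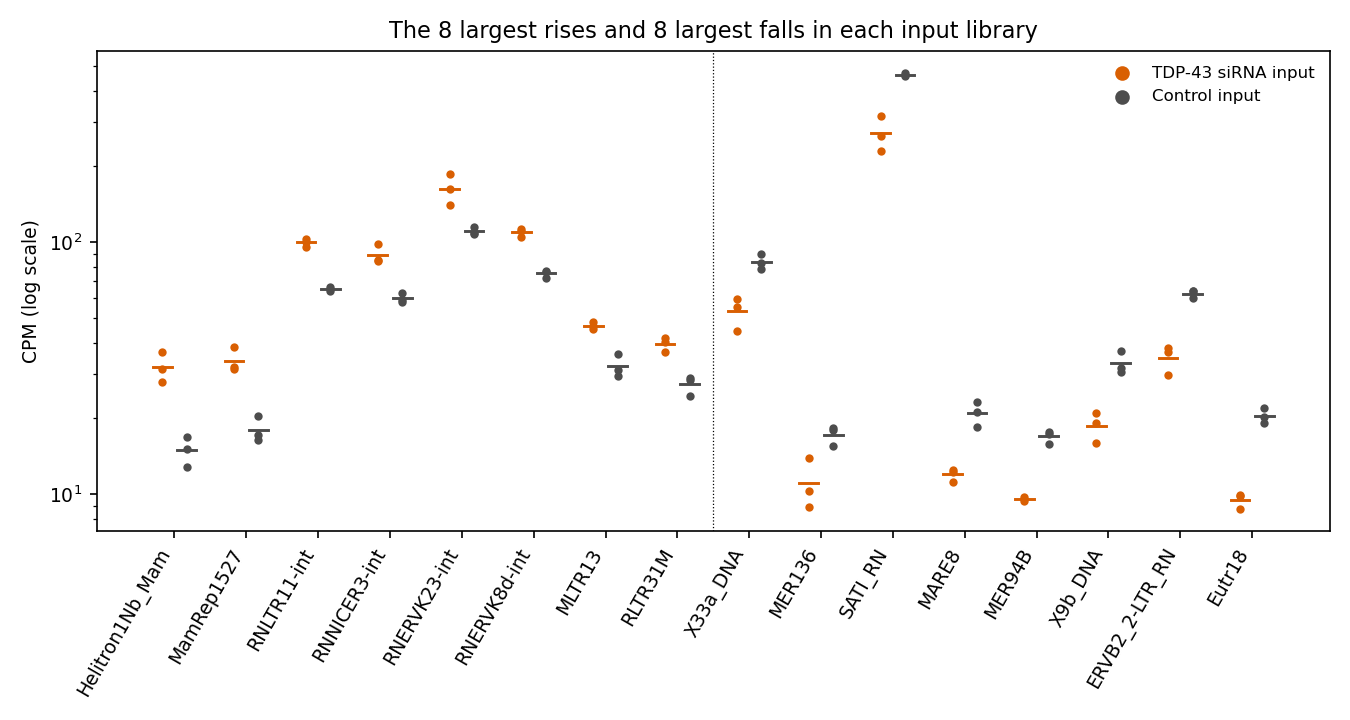
CPM on a log scale in each input library for the 8 largest rises (left of the dotted line) and the 8 largest falls (right) among called names with at least 10 CPM and no overlap. Points are libraries and bars are means of 3, TDP-43 siRNA left of Control within each name; SATI_RN is the most abundant, at 229 to 317 against 455 to 471 CPM.

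LINE-1 names were divided into rodent and older mammalian ones after the values were seen. None of the 33 rodent names was called, and their log2 changes ran from -0.05 to 0.08. L1_Rat4, among the most abundant, stood at 4985, 5283 and 4999 CPM with TDP-43 siRNA and at 5232, 5086 and 5082 CPM in Control (-0.01, SE 0.04), and Lx8, of an older rodent lineage, at 5617, 5764 and 5733 CPM with TDP-43 siRNA against 5719, 5761 and 5872 CPM in Control (-0.02, SE 0.03). All 11 LINE-1 calls, 3 rises and 8 falls, were among 89 names of older mammalian families. Of these 89, 3.37% rose, against 7.56% of all names, and 8.99% fell, against 6.21%. L1MA5 stood at 520, 527 and 522 CPM with TDP-43 siRNA, against 626, 609 and 613 CPM in Control (-0.24, SE 0.02, edgeR adjusted p = 0.000472). L1ME4c (-0.34) and L1ME3C (-0.45) fell, and L1M3b (0.48, at about 10 CPM) and L1MCb (0.28) rose. Total-count scaling left 0 falls and 1 rise, DESeq2 4 and 1, and the fit without Control input replicate 3 also 4 and 1. Without TDP-43 siRNA input replicate 3 there were 3 falls and 1 rise, without Control input replicate 1 3 and 0, and without TDP-43 siRNA input replicate 2 7 and 1. Among 45 ancient LINE names X15_LINE (-0.35) fell and 0 rose, and L2a, the most abundant, was at -0.01 (SE 0.04).

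SINEs, the most abundant transposable elements, differed by little. They took 25.2, 26.1 and 25.5% of repeat counts with TDP-43 siRNA and 26.9, 26.6 and 22.7% in Control as rodent names. Of 34 rodent SINE names 1 rose, B2_RnY (184, 153 and 172 against 123, 134 and 137 CPM in Control; log2 0.37, SE 0.07), and 1 fell, ID2 (961.5, 914 and 948 CPM with TDP-43 siRNA against 1014, 1025 and 1026 CPM in Control; -0.12, SE 0.03), whose call was lost under total-count scaling, DESeq2 and 5 of 6 fits without a library. B3, the most abundant, was at -0.03 (SE 0.03). The 14 B1 names, derived from 7SL RNA, lay between -0.10 and -0.02 with none called, and the 6 ID names between -0.12 and -0.05. BC1_Rn, the RNA from which ID elements derive, stood at -0.07 (SE 0.04, edgeR adjusted p = 0.28). Ancient MIR elements were at -0.09 (MIR, adjusted p = 0.0896 by edgeR) and -0.11 (MIRb, 0.0872), not called.

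Satellites moved both ways. SATI_RN, rat satellite I, stood at 229, 317 and 264 CPM with TDP-43 siRNA and at 471, 455 and 462 CPM in Control (log2 -0.77, SE 0.09, edgeR adjusted p = 0.000699). ISAT_RN fell by 0.41 on the log2 scale, and RNSAT1b rose by 0.49, with 102, 87.4 and 91.6 against 67.4, 70.9 and 60.6 CPM in Control. The abundant RNSAT1c (-0.04, SE 0.07), RatSatRep2 (0.08, SE 0.04) and MurSatRep1 (0.13, SE 0.06) were not called. Of 11 satellite names 1 rose (9.09%, against 7.56% of all names) and 2 fell (18.2%, against 6.21%). Of the 2 satellite falls, 1 was left without TDP-43 siRNA input replicate 3, Control input replicate 1 or Control input replicate 2.

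Among small nuclear RNAs of the spliceosome, U5 stood at 77.01, 67.6 and 76.7 CPM with TDP-43 siRNA and at 47.0, 53.4 and 59.2 CPM in Control (log2 0.47, SE 0.08, edgeR adjusted p = 0.00657). U1 was at 5139, 5190 and 6043 CPM with TDP-43 siRNA, against 3646, 3484 and 5460 CPM in Control (0.38, SE 0.15, edgeR adjusted p = 0.129), and the nucleolar U3, which acts in ribosomal RNA processing, at 0.36 (SE 0.15, adjusted p = 0.146 by edgeR). Control input replicate 3 was the highest Control library for each of the 3, and without it U1 was at 0.62 (edgeR adjusted p = 0.000339) and U3 at 0.56 (adjusted p = 0.00474 by edgeR). U2 (0.13), U4 (0.30) and U6 (-0.12) were not called. Leaving out single libraries moved U2 between 0.04 and 0.29 and U4 between 0.20 and 0.47. Both were called without Control input replicate 3, U4 also without TDP-43 siRNA input replicate 2 or with total-count scaling, and U6 was called lower with upper-quartile factors. Rises in the class numbered 1 of 12 (8.33%, close to the 7.56% of all names). They numbered 6 without Control input replicate 3, 3 without TDP-43 siRNA input replicate 2 and 5 with total-count scaling. U14, a nucleolar RNA at under 11 CPM, fell by 0.61. As a class these RNAs took 1.07, 1.12 and 1.27% of repeat counts with TDP-43 siRNA and 0.873, 0.820 and 1.04% in Control, without overlap. The exact permutation p was 0.1, adjusted to 0.7 over 14 classes, and that of the IAP share was the same.

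Results for the abundant structural RNAs depended on single libraries. 7SLRNA, of the signal recognition particle, took 23.5, 18.8 and 22.2% of repeat counts with TDP-43 siRNA and 24.9, 25.5 and 21.7% in Control (log2 -0.21 in CPM, SE 0.09, edgeR adjusted p = 0.169). 7SK, which holds the elongation factor P-TEFb inactive, took 7.74, 6.23 and 7.14% with TDP-43 siRNA, against 5.86, 6.44 and 5.35% in Control (0.21, SE 0.10, edgeR adjusted p = 0.204). Leaving out single libraries moved 7SK between 0.09 and 0.32 and 7SLRNA between -0.32 and -0.09. Without TDP-43 siRNA input replicate 2, 7SK was called higher by edgeR (0.32), and without TDP-43 siRNA input replicate 1, 7SLRNA was called lower by it (-0.32). Small-subunit ribosomal RNA took 1.32, 3.42 and 2.37% with TDP-43 siRNA and 0.0753, 0.304 and 7.22% in Control. Control input replicate 3 had the highest share of that RNA, and ribosomal RNA as a whole took 13.2, 15.7 and 13.6% with TDP-43 siRNA against 9.77, 10.2 and 22.6% in Control. Neither SSU-rRNA_Hsa (log2 -0.31, SE 1.22) nor LSU-rRNA_Hsa (-0.07, SE 0.20) was called, and without Control input replicate 3 both were higher with TDP-43 siRNA (3.62, edgeR adjusted p = 0.00208, and 0.28, adjusted p = 0.00922). Of 43 transfer RNA names 0 rose (0%, against 7.56% of all names) and 3 fell (6.98%, close to the 6.21% of all names). Among these falls was tRNA-Ala-GCA, at 297, 243 and 268 CPM with TDP-43 siRNA against 335, 342 and 344 CPM in Control (-0.34, SE 0.06). Its call was lost under total-count scaling.

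**Figure D5:**
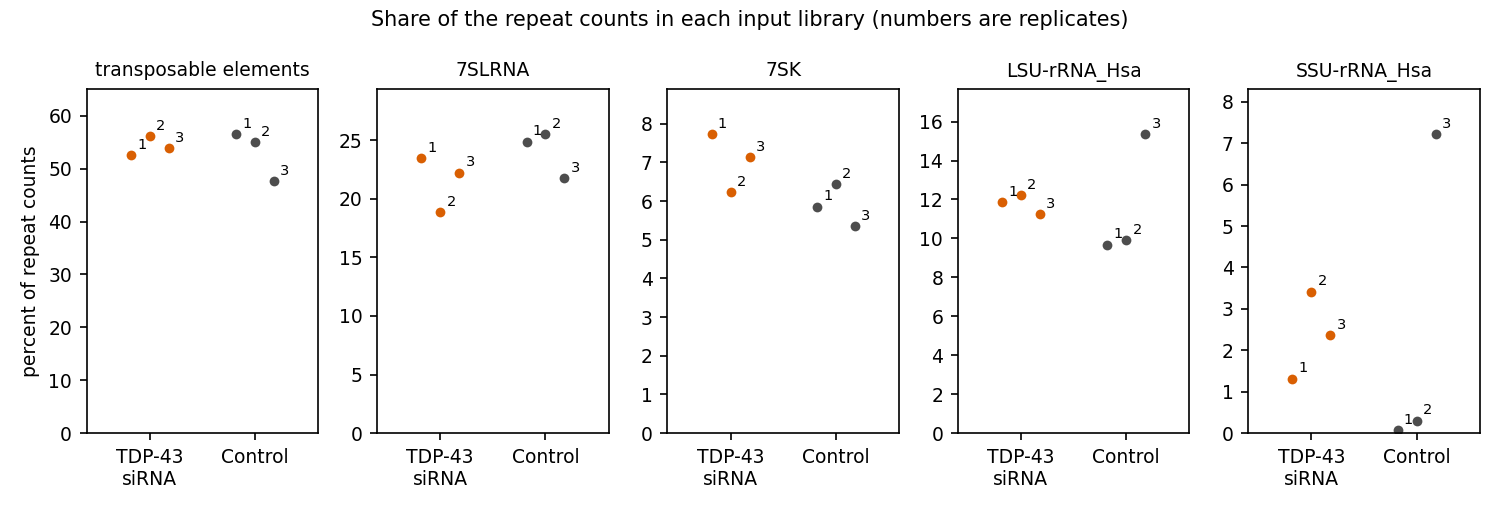
Share of all repeat counts (percent) taken by transposable elements together and by 4 abundant structural RNAs in each input library; points are libraries, numbered by replicate, TDP-43 siRNA left of Control. Control input replicate 3 lies apart in small-subunit ribosomal RNA, at 7.22%, against 1.32 to 3.42% with TDP-43 siRNA and 0.0753 and 0.304% in the other Control libraries.

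The same 12-library experiment holds RNA immunoprecipitated with J2, an antibody against double-stranded RNA, with 1.85 to 3.37 times 1000000 counts a library. Testing whether the effect of TDP-43 siRNA differed between J2-bound and input RNA gave 0 rises and 0 falls of 1176 names by edgeR (0% each), with 88 at an unadjusted p under 0.05 and 6 and 4 by DESeq2. Within J2-bound RNA edgeR called 2 rises (0.17%) and 0 falls (0%): RLTR40 (log2 0.76, edgeR adjusted p = 0.00461) and RLTR31M (3.51, edgeR adjusted p = 0.0493), which also rose in input by 0.12 and 0.53. Of the 90 input rises 59 were above 0 in J2-bound RNA, with a median of 0.18, and of the 74 input falls 25, with a median of -0.10, while 52.1% of all names were above 0. Over the input rises the median SE in the fit of all 12 libraries was 0.29 for J2-bound RNA and 0.28 for input. It was 0.05 in the fit of the input libraries alone. Of the 7 RNERVK names 5 were above 0 there, and of the 15 NICER names 10.

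In poly(A) RNA, from other libraries made with another kit, TDP-43 siRNA against scrambled siRNA gave 0 rises and 0 falls of 1082 names by edgeR (0% each), 74 at an unadjusted p under 0.05, and 2 and 10 by DESeq2. Of the 90 input rises 64 were above 0 there, with a median log2 change of 0.16, and of 73 measured input falls 22 were, with a median of -0.20, against 50.7% of all names above 0. Scrambled siRNA replicate 1 had 3.30 times 1000000 repeat counts, while the other 5 had 14.5 to 39.1 times that unit; without it edgeR called 4 rises (0.359%) and 3 falls (0.269%), and 74 of the 90 input rises were above 0, with a median of 0.22. Of the 73 input falls 24 were above 0 without it, and their median was -0.05, nearer to 0 than with it. RNLTR11-int, the input rise of smallest p, was below 0 in poly(A) RNA, at -1.14 (SE 0.32) with that library and -0.77 (SE 0.21) without it. It was called in neither fit. RNERVK names were above 0 in 5 of 7 with that library (median 0.06) and in 7 of 7 without it (0.55). NICER names were above 0 in 8 of 15 with it (median 0.01) and in 10 of 15 without it (0.07), the count with it being near that of all names. The difference between the poly(A) and input effects was not tested, since the tables were scaled separately.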

How the data were processed

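Total RNA input libraries of rat astrocytes were compared, 3 with TDP-43 siRNA and 3 Control. The values are raw counts per repeat name that the authors deposited, and the labels' protocols name a ScriptSeq kit for total RNA and a TruSeq kit for poly(A) RNA. The submitters' processing notes list the rn6 build and, as tools, DESeq2, Bowtie2, TopHat2 and Trimmomatic, with no roles. How repeats were annotated and counted, whether by strand, and how multiply mapping reads were shared is not given in the sources used here. Related names can therefore share reads.

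Groups came from the labels. The 6 input libraries were fitted alone with edgeR 4.0.16 in R 4.3.3 by its quasi-likelihood test, after filterByExpr and TMM scaling, with calls at a Benjamini-Hochberg adjusted p under 0.05. Standard errors were taken as the size of the log2 change over the square root of F. The J2 contrast used all 12 libraries of that table, and poly(A) repeats were fitted separately. A two-sided exact permutation test was run on the share of each class. Input libraries of 1 group differed by more than counting error (chi-square over its degrees of freedom, 18.6 to 752). Classes were assigned by rules on the names. Among poly(A) genes, 26 rows whose symbols had become dates, with 0.286 to 0.331% of counts, were left out.

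Repeats were named if among the 8 strongest calls in each direction by fold (mean of 10 CPM or more, groups not overlapping), the 8 smallest p, the 3 most abundant of each class and a list of structural RNAs and ID elements. Other names printed were chosen after their values were seen. The members, lists and groups were chosen with earlier results of these data known. Alternatives were RLE, total-count and upper-quartile scaling, DESeq2 1.42.0, other low-count filters, a replicate block, all 12 libraries, transposable elements only and each library left out. The scripts were tested on simulated data.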

Additional observations from a re-analysis of the deposited data

How the results depend on the processing

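The 90 rises and 74 falls in input numbered 94 and 78 with RLE factors, 61 and 53 with DESeq2, 59 and 20 with total-count scaling (50 and 19 of them shared with the original calls), 64 and 140 with upper-quartile factors, 87 and 81 without a filter, 92 and 71 above 10 CPM, 95 and 78 among transposable elements only, and 8 and 14 at a fold of at least 1.5. A spread shared over all 12 libraries of the table gave 0 and 0, where the median SE of the original rises was 0.28 against 0.05. Leaving out single libraries gave 47 to 86 rises and 39 to 85 falls: without TDP-43 siRNA input replicate 3 there were 51 and 44, without Control input replicate 1 47 and 39, without Control input replicate 2 54 and 41, and without Control input replicate 3 78 and 51. Same-numbered input libraries deviated together with correlations of 0.06, -0.14 and 0.08, and those of different numbers with -0.20 to 0.22. With 3 libraries a group, such values cannot tell whether same-numbered libraries share a culture or batch. With a replicate block there were 60 rises and 38 falls, and U1 and U3 were called. Of the 24 called names that the naming rule gave, 20 kept their call in every fit but that with 12 libraries. RNIAP1a and tRNA-Ala-GCA also lost it under total-count scaling, and ID2 in several fits. MER136 lost it without TDP-43 siRNA input replicate 2 or 3 or Control input replicate 1 or 2. None of the 24 reversed. On leaving out single libraries LSU-rRNA_Hsa ran from -0.24 to 0.28 and SSU-rRNA_Hsa from -0.90 to 3.62, both positive without Control input replicate 3 and negative without any other, and the SSU-rRNA_Hsa value with the block was 2.39, not called. The J2 difference gave 6 and 4 calls with DESeq2, and 0 to 7 rises and 0 to 6 falls on leaving out single libraries. Poly(A) repeats gave 1 and 1 with RLE factors, 1 and 1 without a filter, 2 and 10 with DESeq2, and 0 to 4 rises and 0 to 10 falls on leaving out single libraries. The log2 ratio of class shares moved to 0.0324 for IAP without RNIAP1a and to 0.24 for other small RNA without 7SLRNA, and for ribosomal RNA ran from -0.21 to 0.50 when single libraries were left out. The causes were not tested. Depth limits names of few counts: among all tested names the median SE was 0.07, and among structural RNA and satellites 0.16.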
